A study of Homo sapiens with 4 samples.

Results

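The genes described here come from families that make, degrade and control cyclic AMP upstream of protein kinase A, though not every member does. They are the adenylyl cyclases (ADCY genes), the cyclic nucleotide phosphodiesterases (PDE genes with a number and a letter from A to D), the G alpha subunits (GNA genes) and the regulators of G protein signalling (RGS genes), taken by their symbols from a table of 20323 genes. In all, 71 rows matched and gave 69 genes, since PDE4C and PDE8B had 2 rows each, of which the row with the higher mean TPM (a level scaled to gene length and library depth) was used. Of the 69 genes, 59 had counts in at least 1 library and 32 had a mean of at least 1 TPM over the 4 libraries.

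When a receptor is activated it loads a G alpha subunit with GTP. The stimulatory subunit switches on adenylyl cyclases, the inhibitory class switches several of them off, and the Gq class activates phospholipase C beta. RGS proteins speed up GTP hydrolysis by G alpha subunits, mostly of the inhibitory and Gq classes, and so end the signal. Cyclic AMP made by the cyclases releases the catalytic subunits of protein kinase A, and phosphodiesterases break it down. Protein kinase A in turn phosphorylates long forms of the PDE4 enzymes and, through the transcription factor CREB, can induce genes with a cyclic AMP response element in their promoters.

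RNA was enriched for messenger RNA from HT-1080 cells, a human fibrosarcoma line. A guide targeting protein kinase A was used for 1 library (sgPKA). A guide targeting ALKBH5, the RNA demethylase for N6-methyladenosine, was used for another (sgALKBH5), and 2 libraries (sgNC, here control 1 and control 2) carried a control guide. The labels name no treatment, do not say which kinase subunit gene was targeted or whether a line was a clone, and are silent on whether control 1 and control 2 grew apart, so the spread between them may be technical. All groups were grown in the same medium with serum. The series title links both proteins to ferroptosis, a cell death driven by lipid peroxidation.

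The genes the guides are named for were read first. PRKACA, a catalytic subunit of the kinase, was at 10.6 TPM in sgPKA, 70.9 TPM in sgALKBH5, 60.5 TPM in control 1 and 70.1 TPM in control 2. PRKACB, another catalytic subunit, was at 7.28 TPM in sgPKA, 3.70 TPM in sgALKBH5, 3.46 TPM in control 1 and 6.79 TPM in control 2. The level of ALKBH5 was 37.5 TPM in sgALKBH5 and 67.1 TPM in sgPKA, with 80.2 TPM in control 1 and 67.6 TPM in control 2. Total expected counts were 14050867 in sgPKA, 25937347 in sgALKBH5, 18469299 in control 1 and 18522402 in control 2. The mesenchymal marker VIM was at 6730 to 7853 TPM and the epithelial marker EPCAM at 0 in every library, with CDH1 at most at 0.128 TPM. The other epithelial markers, KRT8 and KRT18, were expressed, and the 4 together summed to 478 TPM in sgPKA, 836 TPM in sgALKBH5, 1392 TPM in control 1 and 1023 TPM in control 2. None of 4 immune markers exceeded 0.161 TPM, and none of 3 endothelial markers exceeded 0.929 TPM. NT5E, taken as a mesenchymal marker, was at most at 0.506 TPM. The other mesenchymal markers, FN1, SPARC and CDH2, stood apart between the controls. FN1 was at 220 TPM in sgPKA, 745 TPM in sgALKBH5, 1030 TPM in control 1 and 118 TPM in control 2, and CDH2 at 26.6, 63.4, 73.9 and 19.2 TPM in the same order. SPARC was at 634.5 TPM in sgPKA, 1742 TPM in sgALKBH5, 2215 TPM in control 1 and 909 TPM in control 2. For all 3 genes sgPKA and control 2 were the low libraries, and the part of this division in the results below was not tested.

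Promoter sequences are shown for the 3 genes with counts whose RefSeq windows (GRCh38.p14, 250 bases before to 50 bases after a gene start) hold the full cyclic AMP response element TGACGTCA, a palindrome, so that both strands read alike. They are PDE4A, GNAO1 and PDE7B. Of the 59 genes with counts, 49 had windows in the table. The element was in 3 of their 130 windows (2.31%), and in 649 of all 35116 windows (1.85%). Counted by gene, which depends on how many starts a gene has, 6.12% of the 49 genes and 2.25% of all 27305 genes had a window with it. The shorter core TGACG, searched on both strands and contained in the full element, was in 26 of the 130 windows and in 24.6% of all windows, while by gene it was in 42.9% of the 49 genes and 28.4% of all genes. A match describes these letters and not a bound site. The capitals mark the full element.
PDE4A, chr19:10416523-10416822, plus strand, element starting at -3 from the gene start: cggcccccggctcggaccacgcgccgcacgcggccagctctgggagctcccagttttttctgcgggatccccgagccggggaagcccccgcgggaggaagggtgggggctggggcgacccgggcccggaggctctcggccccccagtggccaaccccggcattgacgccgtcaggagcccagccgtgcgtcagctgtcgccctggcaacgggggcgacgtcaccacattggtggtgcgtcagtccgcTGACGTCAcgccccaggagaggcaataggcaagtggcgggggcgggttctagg
GNAO1, chr16:56191239-56191538, plus strand, element starting at -148 from the gene start: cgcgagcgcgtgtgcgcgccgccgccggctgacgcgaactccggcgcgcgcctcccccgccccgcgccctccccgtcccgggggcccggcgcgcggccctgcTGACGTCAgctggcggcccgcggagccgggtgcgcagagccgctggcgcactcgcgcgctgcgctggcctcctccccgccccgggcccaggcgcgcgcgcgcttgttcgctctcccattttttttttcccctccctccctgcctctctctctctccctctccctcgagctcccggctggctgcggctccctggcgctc
PDE7B, chr6:135851451-135851750, plus strand, element starting at -155 from the gene start: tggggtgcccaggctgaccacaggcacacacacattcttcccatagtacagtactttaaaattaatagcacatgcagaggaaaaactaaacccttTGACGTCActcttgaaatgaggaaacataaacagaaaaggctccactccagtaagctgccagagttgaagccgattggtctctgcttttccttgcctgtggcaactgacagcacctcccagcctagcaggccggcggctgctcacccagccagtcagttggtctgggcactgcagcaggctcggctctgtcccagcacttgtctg

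Among the 59 genes with counts, levels spanned from single reads to 1301 TPM, and each family was led by a few genes. The stimulatory subunit gene GNAS led in every library, at 765 TPM in sgPKA, 1301 TPM in sgALKBH5, 940 TPM in control 1 and 880 TPM in control 2. The GNAS locus has alternative first exons and an antisense gene, and without stated strand use its single value cannot separate them. GNAI2, of the inhibitory class, came next at 403 TPM in sgPKA, 539 TPM in sgALKBH5, 440 TPM in control 1 and 497 TPM in control 2. The plot of levels by library shows the order of the 32 genes at a mean of at least 1 TPM.

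**Figure D1:**
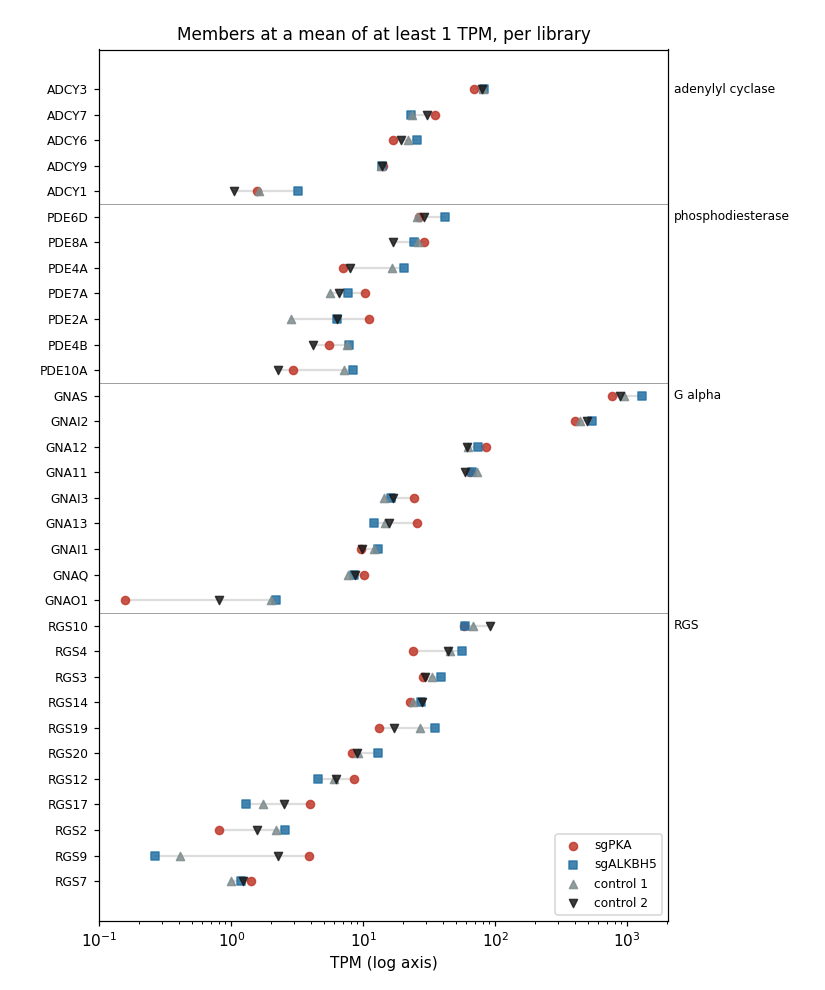
TPM of the 32 genes at a mean of at least 1 TPM (log axis), with 1 marker per library (sgPKA, sgALKBH5, control 1, control 2) and grey lines from the lowest to the highest library. GNAS lies highest, at 765 to 1301 TPM, while GNAO1 and RGS9 have long lines, from 0.156 to 2.17 TPM and from 0.265 to 3.85 TPM.

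Among the adenylyl cyclases, 9 of 10 genes had counts and 5 reached a mean of 1 TPM. ADCY3, a calcium-stimulated form, led with 69.2 TPM in sgPKA, 82.2 TPM in sgALKBH5 and 79.4 ± 0.765 TPM in the controls (SD, n = 2). ADCY7, which responds to G beta-gamma subunits beside the stimulatory subunit, was at 34.8 TPM in sgPKA, 22.9 TPM in sgALKBH5, 23.3 TPM in control 1 and 30.6 TPM in control 2. ADCY6, inhibited by calcium, was at 16.7 TPM in sgPKA and 25.4 TPM in sgALKBH5, with 21.8 and 19.3 TPM in control 1 and control 2. These levels made sgPKA the lowest library for ADCY3 and ADCY6 and the highest for ADCY7. ADCY9 was the most even, at 14.04 TPM in sgPKA, 13.9 TPM in sgALKBH5 and 13.7 ± 0.125 TPM in the controls (SD, n = 2). The neural calcium-stimulated gene ADCY1 was low, at 1.57 TPM in sgPKA, 3.21 TPM in sgALKBH5, 1.63 TPM in control 1 and 1.05 TPM in control 2. ADCY5 had 11 to 51 counts per library, ADCY10, ADCY8 and ADCY2 had at most 7, and ADCY4 had none. Summed over the family, levels were 137 TPM in sgPKA, 148 TPM in sgALKBH5, 141 TPM in control 1 and 145 TPM in control 2.

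Among the PDE genes, 19 of 22 had counts and 7 reached a mean of 1 TPM. PDE6D had the highest mean over the 4 libraries, at 26.4 TPM in sgPKA, 41.3 TPM in sgALKBH5, 25.3 TPM in control 1 and 28.9 TPM in control 2. Despite its name it encodes a chaperone that binds prenylated proteins and is no enzyme. The cyclic AMP-specific PDE8A was at 28.8 TPM in sgPKA, 24.3 TPM in sgALKBH5, 25.8 TPM in control 1 and 16.9 TPM in control 2, above PDE6D in sgPKA and control 1. Its neighbour in specificity, PDE7A, was at 10.3 TPM in sgPKA, 7.65 TPM in sgALKBH5, 5.60 TPM in control 1 and 6.52 TPM in control 2. In TPM both genes were highest in sgPKA, but in normalised counts PDE8A was at 52.45 CPM (counts scaled to library depth) in sgPKA and 52.37 CPM in control 1. PDE4A was at 6.97 TPM in sgPKA, 20.2 TPM in sgALKBH5, 16.6 TPM in control 1 and 7.94 TPM in control 2. PDE4B was at 5.46 TPM in sgPKA, 7.80 TPM in sgALKBH5, 7.48 TPM in control 1 and 4.17 TPM in control 2. For both PDE4 genes, sgPKA and control 2 were the low libraries. Summed over the 8 cyclic AMP-specific genes, levels were 52.2 TPM in sgPKA, 62.7 TPM in sgALKBH5, 59.4 TPM in control 1 and 37.0 TPM in control 2, so the sum in sgPKA lay between the controls.

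Among the dual-specificity enzymes, which cleave cyclic AMP and cyclic GMP, PDE10A and PDE2A had a mean of at least 1 TPM. PDE10A was at 2.93 TPM in sgPKA, 8.33 TPM in sgALKBH5, 7.12 TPM in control 1 and 2.26 TPM in control 2, the same division of libraries as for PDE4A. PDE2A, which cyclic GMP stimulates, was at 11.1 TPM in sgPKA, 6.30 TPM in sgALKBH5, 2.83 TPM in control 1 and 6.36 TPM in control 2. PDE3A had 9 counts in sgPKA, 1 in sgALKBH5, 11 in control 1 and 11 in control 2. After normalization its level in sgALKBH5 was 0.0649 of control 1 and 0.064 of control 2. Its mean of 0.0695 TPM lies under the limit of 1 TPM used for fold differences below. PDE3B, PDE6C and PDE9A had no counts, so an exact 0 there allows up to 3 counts, or 0.201 CPM after normalization in sgPKA, the shallowest library. The cyclic GMP-specific genes summed to 0.65 TPM in sgPKA, 0.86 TPM in sgALKBH5, 2.11 TPM in control 1 and 0.698 TPM in control 2.

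A pair of low cyclic AMP-specific genes divided the libraries most sharply by counts. PDE7B had 2 counts in sgPKA, 32 in sgALKBH5, 47 in control 1 and 3 in control 2. PDE8B had 2.66 expected counts in sgPKA, 78 in sgALKBH5, 29 in control 1 and 1.97 in control 2, and its second row added 1.34 in sgPKA and 4.03 in control 2. After normalization PDE7B in sgPKA was 0.107 of its level in sgALKBH5, with an exact 95% interval from 0.0124 to 0.417, which like all intervals here covers counting error only. PDE4D, a further PDE4 gene, had 16 counts in sgPKA, 46 in sgALKBH5, 32 in control 1 and 26 in control 2. Of the other low genes, the cyclic GMP-specific PDE5A had 32 to 63 counts per library and the dual-specificity PDE11A 10 to 25, while PDE1A, PDE1B, PDE1C, PDE4C, PDE6A and PDE6B had at most 9.

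Of the 16 G alpha genes, 15 had counts and 9 reached a mean of 1 TPM. The stimulatory class, which is GNAS with traces of the olfactory form GNAL, made up 55.1% of the summed G alpha TPM in sgPKA, 64.0% in sgALKBH5, 60.0% in control 1 and 56.8% in control 2. The inhibitory class made up 31.5% in sgPKA, 28.1% in sgALKBH5, 30.0% in control 1 and 33.9% in control 2. The G12 class took 7.99% in sgPKA against 4.22% in sgALKBH5, 4.88% in control 1 and 4.97% in control 2. In the chart of classes, sgPKA thus had the highest G12 sum and the lowest stimulatory sum.

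**Figure D2:**
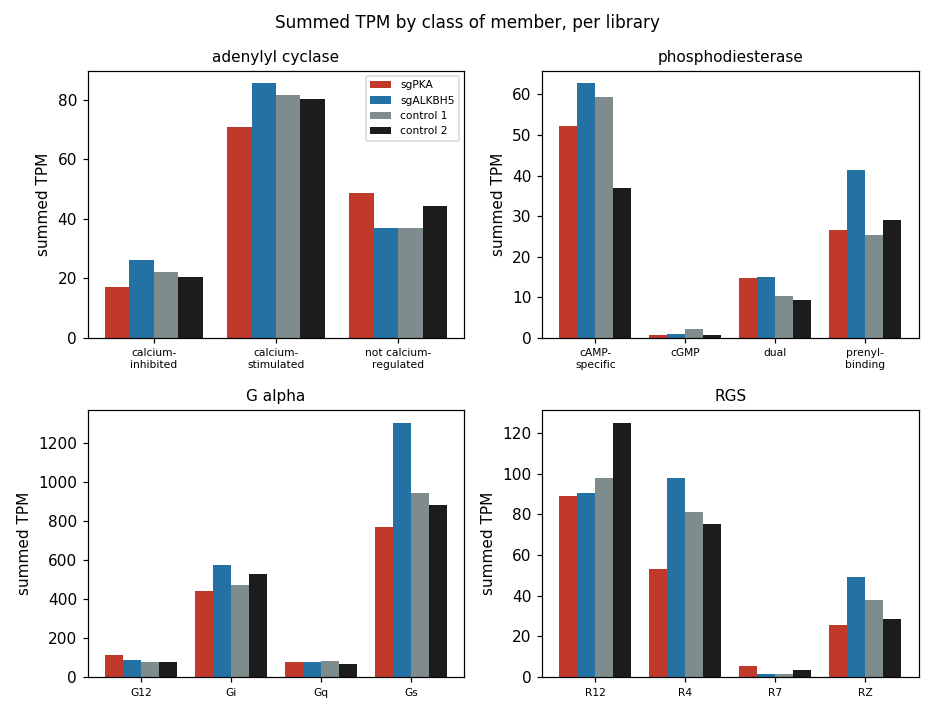
Summed TPM of the classes within each family, with 1 bar per library (sgPKA, sgALKBH5, control 1, control 2); classes under 1 TPM in every library are left out. The stimulatory G alpha class is lowest in sgPKA at 765 TPM and highest in sgALKBH5 at 1302 TPM, and the R4 class of RGS genes is lowest in sgPKA at 53.3 TPM and highest in sgALKBH5 at 97.97 TPM.

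Both genes of the G12 class were higher in sgPKA than in the other libraries. GNA12 was at 85.7 TPM in sgPKA, 73.7 TPM in sgALKBH5 and 61.6 ± 0.255 TPM in the controls (SD, n = 2). GNA13 was at 25.4 TPM in sgPKA, 12.1 TPM in sgALKBH5, 14.7 TPM in control 1 and 15.7 TPM in control 2. For GNA13 the controls were close in TPM but not in normalised counts, which were 76.4 CPM in sgPKA, 31.7 CPM in sgALKBH5, 38.6 CPM in control 1 and 54.2 CPM in control 2. In the Gq class GNA11 was at 64.6 TPM in sgPKA, 66.3 TPM in sgALKBH5, 72.5 TPM in control 1 and 59.0 TPM in control 2, so in TPM both knockouts lay between the controls. In normalised counts both lay below them, at 124 CPM in sgPKA, 141 CPM in sgALKBH5, 154 CPM in control 1 and 143 CPM in control 2. The gap of sgALKBH5 to control 2 was within counting error, at 0.986 of it with an interval from 0.9375 to 1.038. GNAQ was at 10.1 TPM in sgPKA, 8.47 TPM in sgALKBH5, 7.62 TPM in control 1 and 8.62 TPM in control 2. Among inhibitory genes, GNAI3 was at 24.2 TPM in sgPKA, 16.1 TPM in sgALKBH5, 14.3 TPM in control 1 and 16.8 TPM in control 2, and GNAI1 at 9.61, 12.9, 11.99 and 9.75 TPM in the same order. GNAI3 was thus highest in sgPKA, while GNAI1 and GNAI2 were lowest there. GNAO1, known mainly from neurons, was at 0.156 TPM in sgPKA, 2.17 TPM in sgALKBH5, 2.001 TPM in control 1 and 0.813 TPM in control 2, from 5, 151, 68 and 19 counts. GNAZ had 19 to 30 counts per library and GNAL 8.28 to 35.14 expected counts, while GNA15, GNA14 and the transducins GNAT1 and GNAT2 had at most 6, and GNAT3 had none.

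Of the 21 RGS genes, 16 had counts and 11 reached a mean of 1 TPM. RGS10 led, at 57.8 TPM in sgPKA, 58.9 TPM in sgALKBH5, 68.2 TPM in control 1 and 91.3 TPM in control 2. With RGS14, at 22.6 TPM in sgPKA, 27.2 TPM in sgALKBH5, 23.9 TPM in control 1 and 27.6 TPM in control 2, and RGS12, at 8.43, 4.56, 5.97 and 6.18 TPM in the same order, it forms the R12 class, which acts on inhibitory G alpha subunits. Of these, RGS10 was below both controls in both knockout libraries, whereas RGS12 was above both in sgPKA and below both in sgALKBH5.

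The R4 class holds small RGS proteins for the inhibitory and Gq classes. RGS4 was at 23.7 TPM in sgPKA, 55.7 TPM in sgALKBH5, 45.4 TPM in control 1 and 43.6 TPM in control 2, and the controls differed by little beside the gap to sgPKA. RGS3 was at 28.6 TPM in sgPKA, 38.8 TPM in sgALKBH5, 33.2 TPM in control 1 and 29.4 TPM in control 2. RGS2, which acts mostly on Gq, had 8 counts in sgPKA, 47 in sgALKBH5, 29 in control 1 and 22 in control 2. In TPM, the R4 genes RGS3, RGS4 and RGS2, which are those with a mean of at least 1 TPM, were thus lowest in sgPKA and highest in sgALKBH5. RGS5 had 8 to 17 counts in each library, RGS16 and RGS8 had 1 count each in all, and RGS1, RGS13, RGS18 and RGS21 had none. Outside this class RGS11 and RGS22 had 2 counts each in all, and RGS6 had none.

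In the RZ class, RGS19 was at 13.2 TPM in sgPKA, 34.7 TPM in sgALKBH5, 27.0 TPM in control 1 and 17.1 TPM in control 2. RGS20 was at 8.21 TPM in sgPKA, 12.9 TPM in sgALKBH5 and 9.02 ± 0.0785 TPM in the controls (SD, n = 2). RGS17 ran the other way, at 3.93 TPM in sgPKA, 1.29 TPM in sgALKBH5, 1.75 TPM in control 1 and 2.53 TPM in control 2. In the R7 class, known from neurons and photoreceptors, RGS9 had 69 counts in sgPKA, 8 in sgALKBH5, 10 in control 1 and 59 in control 2, and RGS7 stayed between 0.988 and 1.41 TPM. RGS9 was thus high in sgPKA and control 2 and low in sgALKBH5 and control 1. PDE10A divided the same libraries in the opposite direction.

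In log2(TPM + 1), sgPKA had no member at least 2-fold away from both controls. The 2-fold rule, which has no test, asked for a difference of at least 1 in log2(TPM + 1) in 1 direction from each control. It counted 0 of 32 members higher, where 1.04% of 11629 genes were, and 0 of 32 lower, where 1.39% were. In TPM 13 members were higher than both controls and 14 lower than both, against 50.3% and 26.9% of all genes. TPM values of sgPKA ran above the controls by a median of 0.15 over all genes on the log2 scale, and the median of the members was -0.03. In normalised counts, which are centred, 11 of 42 members were higher than both controls and 22 lower than both, against 38.6% and 37.8% of all genes, and the median log2 fold change was -0.28 over the 42 members and -0.03 over 13061 genes. The 42 are the members that passed the filter on low counts, and not all 69.

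With the quasi-likelihood test in edgeR, 0 of 42 members passed an adjusted p of 0.05 in sgPKA against control, where 0.0% of all genes did. At an unadjusted p under 0.05 it counted 1 member, RGS4, where 9.07% of genes were counted. DESeq2 called 0 of 42, where it called 0.942% of genes. Low members such as RGS2 and PDE4D got no adjusted p from it and could not be called. Fitted to genes at a mean of at least 1 TPM, limma called 0 members and 0 genes in all. RGS4 had a log2 fold change of -1.27 with a standard error of 0.23 in edgeR and was below both controls, with an adjusted p of 0.527 in edgeR that ran from 0.12 in DESeq2 to 0.666 in edgeR without the filter. In normalised counts RGS4 in sgPKA was 0.404 of control 1, with a counting interval from 0.347 to 0.468, and 0.428 of control 2, from 0.368 to 0.497. GNAO1 was 0.0894 of control 1 and 0.317 of control 2, on 5 counts. RGS2 was 0.3355 and 0.438 of them on 8 counts, with an interval up to 1.02 for control 2. By these ratios RGS4, GNAO1 and RGS2 were more than 2-fold below both controls, and none of the 32 genes lay as far above both. The share of all genes by such ratios was not counted, so these ratios describe single genes and not the members as a set. GNAS had a log2 fold change of -0.47 with a standard error of 0.20 and an adjusted p of 0.527 in edgeR, from 0.506 to 0.666 under other settings, and was 0.721 of control 1 and 0.726 of control 2. GNA13 had a log2 fold change of 0.72 with a standard error of 0.29 in edgeR, and was 1.98 times control 1 but 1.41 times control 2.

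**Figure D3:**
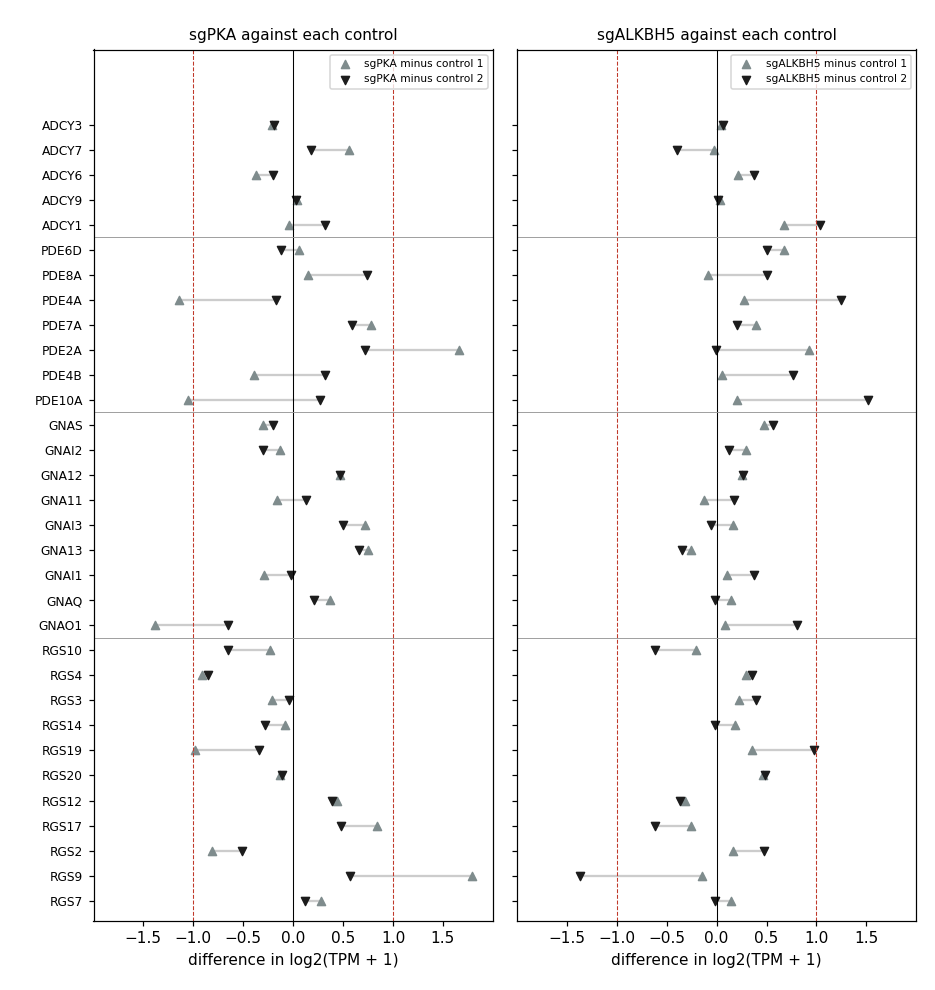
Difference in log2(TPM + 1) of each of the 32 genes at a mean of at least 1 TPM, sgPKA on the left and sgALKBH5 on the right, each against control 1 (triangles up) and control 2 (triangles down), with dashed lines at a 2-fold difference. In neither panel do both triangles of a gene lie past the same dashed line, and long grey lines, as for PDE10A, PDE4A and RGS9, show where the controls themselves lay apart.

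Several of these differences changed with the control used. Against control 1 alone, 2 members were at least 2-fold higher and 3 at least 2-fold lower in sgPKA, and against control 2 alone 0 and 0 were. RGS9 in sgPKA was 1.79 above control 1 and 0.57 above control 2 in log2(TPM + 1), and PDE2A 1.66 and 0.72 above them. In normalised counts PDE2A in sgPKA was 2.21 times control 1 but 0.803 of control 2, with a counting interval from 0.652 to 0.986, so its direction turned. PDE4A was at -1.14 against control 1 and -0.17 against control 2. GNAO1 was at -1.38 against control 1 and -0.65 against control 2, so it was below both. PDE10A turned direction, at -1.05 against control 1 and 0.27 against control 2. Control 2 and control 1 were at least 2-fold apart for 2 of 32 members, PDE10A and RGS9, where 6.41% of all genes were. In 25 of 32 members sgPKA lay nearer to control 2 than to control 1, where 48.7% of all genes did, and in 9 of 32 sgALKBH5 lay nearer to control 2, where 32.4% did. These counts share the controls and carry no test.

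In log2(TPM + 1), sgALKBH5 also had no member at a mean of at least 1 TPM that was at least 2-fold away from both controls. The rule counted 0 of 32 higher, where 1.03% of all genes were, and 0 of 32 lower, where 0.482% were. In TPM 19 members were higher than both controls and 6 lower than both, against 39.1% and 27.5% of all genes. In normalised counts 20 of 42 lay above both and 12 below both, against 33.5% and 33.4%, and the median log2 fold change was 0.10 over the 42 members and -0.01 over 13061 genes. Without the filter on low counts the median over 59 members was -0.08, so its sign rested on that filter.

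GNAS was above both controls in sgALKBH5, and edgeR put its log2 fold change at 0.42 (standard error 0.19, adjusted p = 0.998, and 0.979 to 1.0 under other settings and DESeq2). In normalised counts it was 1.33 times control 1, with a counting interval from 1.31 to 1.36, and 1.34 times control 2. PDE4A was 1.25 times control 1 and 2.54 times control 2, and PDE10A 1.06 and 3.49 times, so that for both genes the distance from control 2 was the larger. In edgeR 0 of 42 members were called, where 0.0% of genes were, and at an unadjusted p under 0.05 it counted 0 members, where 2.83% of genes were counted. DESeq2 called 0 of 42, where it called 0.26% of genes, though RGS5, PDE11A and PDE3A got no adjusted p from it. Fitted to genes at a mean of at least 1 TPM, limma called 0 members and 0 genes in all. Against control 2 alone 3 members were at least 2-fold higher, which were ADCY1, PDE4A and PDE10A, and 1 was lower, RGS9. Against control 1 alone 0 and 0 were.

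Between the knockout libraries the 2-fold rule had 1 library to pass and not 2. Of 32 members, 3 were at least 2-fold higher in sgPKA than in sgALKBH5, where 5.68% of all genes were, and 5 were at least 2-fold lower, where 7.09% were. The higher genes were GNA13, RGS17 (ENSG00000091844, chr6:153004459-153131282) and RGS9. The lower ones were RGS4 (ENSG00000117152), RGS19 (ENSG00000171700, chr20:64073181-64079964), PDE4A (ENSG00000065989, chr19:10416773-10469631), PDE10A (ENSG00000112541, chr6:165327289-165988052) and GNAO1 (ENSG00000087258, chr16:56191489-56357444), with coordinates from GRCh38.p14. The test of edgeR called 0 of 42 members, where 0.0% of genes were called. At an unadjusted p under 0.05 it counted 9, where 11.6% of genes were counted. In normalised counts 23 of 42 members were lower in sgPKA than in sgALKBH5, where 50.8% of genes were, and the median log2 fold change was -0.27 over the members and -0.01 over all genes tested. DESeq2 called 0 of 42, where it called 2.38% of genes, though RGS5, PDE11A and PDE3A again got no adjusted p from it. Fitted to genes at a mean of at least 1 TPM, limma called 0 of the 32 members. Each group had 1 library here, and the spread in the test came from the controls.

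**Figure D4:**
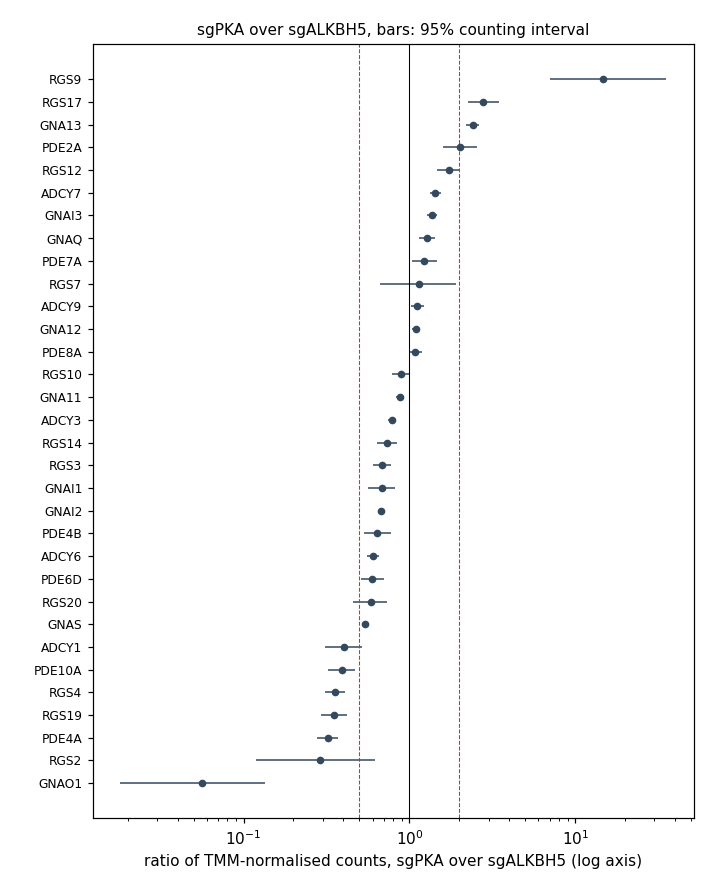
Ratio of normalised counts, sgPKA over sgALKBH5 (log axis), for the 32 genes at a mean of at least 1 TPM, with exact 95% intervals that cover counting error only and dashed lines at 2-fold. RGS9 is highest at 14.7 and GNAO1 lowest at 0.0564, and the intervals of PDE4A, RGS19, RGS4 and PDE10A lie wholly below 0.5.

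The ratios of these 8 genes are a description, since they were picked for their difference between these libraries. RGS4 in sgPKA was 0.355 of its level in sgALKBH5, with a counting interval from 0.308 to 0.409, and edgeR gave a log2 fold change of -1.49 with a standard error of 0.25 and an adjusted p of 0.424, from 0.0616 in DESeq2 to 0.575 without the filter. For RGS4 control 1 and control 2 both lay with sgALKBH5, since they were 0.943 apart in normalised counts as control 2 over control 1. RGS19 was 0.351 of sgALKBH5, with an interval from 0.292 to 0.419. Its controls lay between the knockouts, with control 2 at 0.668 of control 1, from 0.571 to 0.780. PDE4A was 0.323, with an interval from 0.278 to 0.374, and PDE10A was 0.391, from 0.322 to 0.471. For PDE4A control 2 was 0.492 of control 1, and for PDE10A it was 0.305, so the controls were also apart by more than counting error. GNAO1 was 0.0564 of sgALKBH5, with an interval from 0.0181 to 0.135, on 5 counts. For GNAO1 control 2 was 0.282 of control 1, from 0.160 to 0.475.

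In the other direction GNA13 in sgPKA was 2.41 times sgALKBH5, with a counting interval from 2.20 to 2.64, and RGS17 was 2.79 times, from 2.25 to 3.46. Control 2 over control 1 was 1.41 for GNA13, from 1.275 to 1.55, and 1.54 for RGS17, from 1.24 to 1.93. RGS9 was 14.7 times, with an interval from 7.06 to 35.4, and control 2 over control 1 was 5.96, from 3.02 to 13.1. GNAS did not reach 2-fold but had the narrowest counting interval, at 0.541 of sgALKBH5, from 0.528 to 0.554. That interval covers counting error only, and the standard error of its log2 fold change in edgeR was 0.23, as for ADCY3 and GNA12. The DESeq2 adjusted p of GNAS was 0.0548, against 0.424 in edgeR and up to 0.575 under the other settings. Both controls lay between the knockouts for GNAS.

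The counts and the TPM of a gene need not move together, since TPM also divides by an effective length that depends on which transcripts the counts were assigned to. Counts per TPM, set relative to control 1 and to the median gene, stayed within 1.5-fold for 28 of 29 members in sgPKA that had at least 20 counts in every library. PDE2A was the exception, at 0.624 in sgPKA and 0.501 in sgALKBH5, while control 2 was at 1.15. Thus PDE2A in sgALKBH5 was above the controls by 0.46 in the mean of log2(TPM + 1) but had a log2 fold change of -0.77 in counts. ADCY1 was at 0.678 in sgPKA, 0.752 in sgALKBH5 and 1.28 in control 2, and its difference between sgPKA and control was 0.14 in log2(TPM + 1) but -0.68 in counts. GNA13 was at 1.265 in sgPKA and 1.23 in control 2, with 1.013 in sgALKBH5. Over 10873 genes, 1.55% in sgPKA and 1.18% in sgALKBH5 passed 1.5-fold. The deposited table gives no values per transcript.

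**Figure D5:**
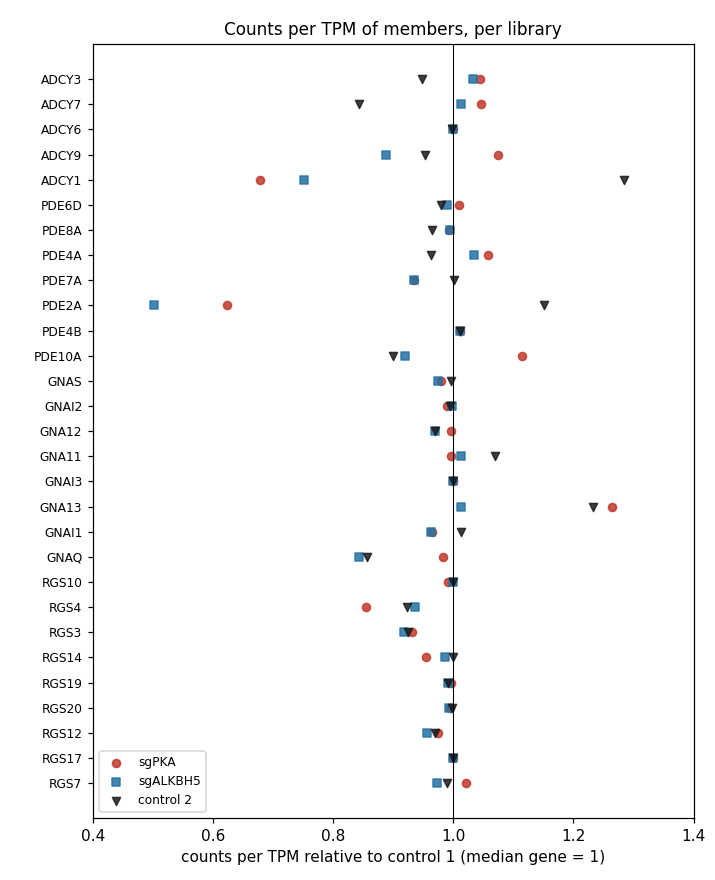
Counts per TPM of the 29 members with a mean of at least 1 TPM and at least 20 counts in every library, relative to control 1 and to the median gene, for sgPKA, sgALKBH5 and control 2. Most points lie near 1, while PDE2A is at 0.624 in sgPKA and 0.501 in sgALKBH5, and ADCY1 at 0.678 and 0.752.

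All 69 members had a position in the RefSeq annotation of GRCh38.p14, and 10 pairs of members lay within 200 kb of each other. In 2 pairs both genes had counts in every library, at least 8 each. GNA13 (chr17:65009289-65056740) and RGS9 (chr17:65137370-65227703) are 80.6 kb apart, and both were highest in sgPKA and lowest in sgALKBH5. For GNA13 the controls were at 14.7 and 15.7 TPM, while for RGS9 they were at 0.406 and 2.27 TPM, so in TPM the controls lay closer for GNA13 than for RGS9. In normalised counts control 2 was 1.41 times control 1 for GNA13 and 5.96 times for RGS9. RGS4 (chr1:163068871-163076802) and RGS5 are 65.5 kb apart, and RGS5 was at 0.234 TPM in sgPKA, 0.912 TPM in sgALKBH5, 0.283 TPM in control 1 and 0.741 TPM in control 2. In TPM both RGS4 and RGS5 were lowest in sgPKA and highest in sgALKBH5. RGS5 rests on 10 counts in sgPKA, 17 in sgALKBH5, 8 in control 1 and 14 in control 2. After normalization these were 0.669 CPM in sgPKA, 0.668 CPM in sgALKBH5, 0.44 CPM in control 1 and 0.778 CPM in control 2. In normalised counts RGS5 was thus level between the knockouts and lowest in control 1. The pairs were picked out after their values were seen.

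Other genes of the pathway were read from 6 lists with 75 genes, which are the G beta and gamma subunits, receptors coupled to stimulatory or inhibitory subunits, cyclic AMP effectors and efflux pumps, G alpha chaperones with receptor kinases, and guanylyl cyclases. Of these, 64 had counts, 47 had a mean of at least 1 TPM, and edgeR called 0 in each comparison. Against both controls, 0 of the 47 were at least 2-fold higher and 2 were lower in sgPKA, where 1.04% and 1.39% of all genes were, and 0 were higher and 1 was lower in sgALKBH5, where 1.03% and 0.482% were. The lower ones in sgPKA were a receptor and a receptor cyclase. ADORA2A, an adenosine receptor coupled to the stimulatory subunit, was at 2.03 TPM in sgPKA, 7.32 TPM in sgALKBH5, 16.8 TPM in control 1 and 6.96 TPM in control 2. NPR2, the natriuretic peptide receptor that makes cyclic GMP, was at 6.15 TPM in sgPKA, 32.4 TPM in sgALKBH5, 33.6 TPM in control 1 and 16.1 TPM in control 2. In sgALKBH5 it was HRH2, a histamine receptor coupled to the stimulatory subunit, at 0.837 TPM, against 7.23 TPM in sgPKA, 7.52 TPM in control 1 and 7.99 TPM in control 2. Between the knockouts 1 of the 47 was at least 2-fold higher and 7 were lower in sgPKA than in sgALKBH5, where 5.68% and 7.09% of all genes were.

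Beside ADORA2A and NPR2, the most abundant genes of each list were these. GNB1, the first G beta subunit, was at 341 TPM in sgPKA, 379 TPM in sgALKBH5, 312 TPM in control 1 and 316 TPM in control 2, and GNB2 was at 303, 339, 327 and 443.5 TPM in the same order. The G alpha chaperone RIC8A was at 121 TPM in sgPKA, 127 TPM in sgALKBH5, 122 TPM in control 1 and 108 TPM in control 2. GPSM3 holds inhibitory G alpha subunits in the GDP form. It was at 74.9 TPM in sgPKA, 101.5 TPM in sgALKBH5, 118 TPM in control 1 and 164 TPM in control 2. GPSM3 was thus below both controls in both knockouts, and the share of all genes with this pattern was not counted. The cyclic nucleotide pump ABCC5 was at 31.2, 38.7, 30.9 and 25.4 TPM in the same order of libraries, and the cyclic AMP-binding POPDC3 at 22.9, 15.6, 15.98 and 13.1 TPM. Among receptors, LGR4 was at 9.14 TPM in sgPKA, 4.48 TPM in sgALKBH5, 6.44 TPM in control 1 and 5.06 TPM in control 2. The thrombin receptor F2R was at 11.8 TPM in sgPKA, 19.1 TPM in sgALKBH5, 30.6 TPM in control 1 and 11.5 TPM in control 2, and the sphingosine phosphate receptor S1PR1 at 2.43, 3.12, 5.69 and 3.38 TPM. GUCY1B1, a subunit of the nitric oxide-sensitive guanylyl cyclase, was at 11.2 TPM in sgPKA, 6.98 TPM in sgALKBH5, 6.63 TPM in control 1 and 10.5 TPM in control 2. For F2R and GUCY1B1, sgPKA and control 2 again stood together, low for F2R and high for GUCY1B1.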

How the data were processed

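The deposited table gave, for each gene and library, TPM and expected counts made by the authors, with no header on how they were made. Per the submitters' processing notes, fastp 0.18.0, HISAT2 2.1.0, StringTie 1.3.1 and RSEM were used with GRCh38.p14, in an order they do not give, and annotation release and strand use are not given in the sources used here. TPM has the same sum in every library, so a TPM level depends on all other genes. Between 10.6% and 12.7% of the expected counts were not whole.

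After rounding, expected counts went into edgeR 4.0.16 for its quasi-likelihood test (R 4.3.3, TMM normalization, filterByExpr, 3 groups in 1 fit, Benjamini-Hochberg adjustment at 0.05 over 13061 genes, 1 residual degree of freedom, common biological coefficient of variation 0.347). Each knockout had 1 library, so the spread came from the 2 controls and a test compares these libraries. Standard errors given for edgeR are the size of the log2 fold change divided by the square root of the F statistic. The spread behind F was moderated over genes, with a median prior of 3.15 degrees of freedom. Fold differences in TPM used a pseudocount of 1 and genes at a mean of at least 1 TPM. Ratios of normalised counts have exact (Clopper-Pearson) intervals at 95%, which cover counting error only. With 3 counts as the limit for a count of 0, the limits were 0.201 CPM in sgPKA, 0.118 CPM in sgALKBH5, 0.165 CPM in control 1 and 0.167 CPM in control 2. DESeq2 1.42.0, limma 3.58.1 on log2(TPM + 1), other filters, pseudocounts and scalings, and leaving out each control were alternatives.

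Members and lists were chosen with earlier results of these data known. Named with values in every library were the 5 members with the highest mean TPM in each family, those at least 2-fold from both controls or between the controls, and those called by edgeR or DESeq2, and for each list the 2 genes with the highest mean TPM and those at least 2-fold from both controls. Other named members, the promoters shown and the neighbour pairs were chosen after their values were seen.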

Additional observations from a re-analysis of the deposited data

How the results depend on the processing

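The members had 0 calls between sgPKA and control, between sgALKBH5 and control and between sgPKA and sgALKBH5 under edgeR with the size factors of DESeq2, edgeR without the filter, the Wald test of DESeq2 and limma, while over all genes DESeq2 called 123, 34 and 311 in these comparisons, where edgeR called 0 in each. Leaving out a control leaves no residual degree of freedom, so there is then no test, and a fit of only the libraries compared could not be run for sgPKA against sgALKBH5. Some low members got no adjusted p from DESeq2, and limma was fitted only to genes at a mean of at least 1 TPM. No paired analysis was possible because only the controls carry replicate numbers and each knockout has 1 library.

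Against single controls the counts of members at least 2-fold away ran from 0 to 2 higher and 0 to 3 lower in sgPKA, and from 0 to 3 higher and 0 to 1 lower in sgALKBH5. With log2(TPM + 0.1) 1 member, GNAO1, was at least 2-fold lower in sgPKA than in both controls. At a mean of at least 5 TPM 1 member, and not 3, was at least 2-fold higher in sgPKA than in sgALKBH5. For sgPKA against control the median log2 fold change of the members was -0.37 without the filter and -0.03 in log2(TPM + 1). For sgALKBH5 against control it was -0.08 and 0.25, with 0.05 to 0.09 when a control was left out. For sgPKA against sgALKBH5 it was -0.16 and -0.25. These medians cover unlike sets, with 59 members without the filter, 42 with it and 32 in log2(TPM + 1). In log2(TPM + 1) the medians over all genes were 0.15, 0.05 and 0.10 in the same order of comparisons.

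Of 440 values of named members under other settings, 14 changed sign, 7 in log2(TPM + 1) and 7 when a control was left out. All 14 were in comparisons with the controls. The 440 also hold sgPKA against sgALKBH5, whose difference does not use the level of either control, and size factors that moved values by little. The share of 440 is therefore no measure of how stable the directions were. In log2(TPM + 1), the sign changes for sgPKA against control were ADCY9 at 0.03 and ADCY1 at 0.14. For sgALKBH5 against control they were GNA11 at 0.02, RGS14 at 0.08, GNAI3 at 0.05, ADCY9 at 0.02 and PDE2A at 0.46. RGS9 moved to 3.06 in sgPKA and -0.80 in sgALKBH5 without control 2. Without control 1 PDE10A in sgPKA was at 0.45, against -1.27 without control 2, and PDE2A at -0.32, against 1.14. Without control 2 ADCY9 in sgPKA was at 0.01, and in sgALKBH5 RGS14 was at 0.15, GNAI3 at 0.15, PDE8A at -0.12 and PDE2A at 0.14. The cause of these moves was not tested.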
